A study of Mus musculus with 24 samples.

Results

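Oxidative phosphorylation genes, which encode the subunits of the respiratory chain and of ATP synthase, were followed across ER-Hoxb8 cells with different ERG constructs and with an HDAC3 inhibitor. They were taken from the read-count table as the protein-coding genes whose symbols start with Ndufa, Ndufb, Ndufc, Ndufs, Ndufv, Uqcr, Cox4i, Cox5, Cox6, Cox7, Cox8, Atp5, mt-Nd, mt-Co or mt-Atp, or are Sdha, Sdhb, Sdhc, Sdhd, Cyc1 or mt-Cytb. The rule gave 107 of the 53801 genes in the table, of which 94 lie in the nuclear genome and 13 in mitochondrial DNA. After a filter on low counts, 95 of them were tested among 12963 genes in all, namely 87 nuclear and 8 mitochondrially encoded genes. The symbols also bring in 8 complex I assembly factors, Ndufaf1 to Ndufaf8, which help to build the complex but are not part of it. The rule reads symbols and gene types, and expression entered only through the filter.

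ER-Hoxb8 cells are granulocyte-monocyte progenitors from C57BL/6 mice in which an estrogen-controlled Hoxb8 protein holds back myeloid maturation. The 6 groups were WT-ERG cells with BRD3308, WT-ERG cells with DMSO, P199L-ERG cells with BRD3308, P199L-ERG cells with DMSO, BB cells with BRD3308 and BB cells with DMSO, each with 4 libraries that the deposited description assigns to independent experiments. WT-ERG and P199L-ERG are HA-tagged human ERG, P199L with a proline replaced by leucine, driven by the human PGK promoter of a lentivirus, and BB is the same vector without ERG. All cells had been transduced, kept as GFP-sorted stable lines and washed free of beta-estradiol. BRD3308, an inhibitor of the histone deacetylase HDAC3, was used at 5 µM for 36 h according to the methods and the deposited description, whereas the main text of the study gives another time and a legend another dose. Separate transductions are not stated, so a difference between constructs and a difference between the derived lines cannot be told apart.

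Oxidative phosphorylation passes electrons from NADH through complex I, or from succinate through complex II, by way of ubiquinone to complex III, and from there by cytochrome c to complex IV, where oxygen is reduced. The protons pumped on the way drive ATP synthase, also called complex V. Most subunits are made from nuclear genes and imported, while a small core of complexes I, III, IV and V is encoded in mitochondrial DNA, so the complexes need both genomes. In myeloid cells, mature neutrophils are known for few mitochondria and for energy from glycolysis, whereas their progenitors hold more of them.

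The libraries held 12510036 to 16280939 counts. Nuclear oxidative phosphorylation genes took 1.09% to 1.45% of a library and the mitochondrially encoded genes took 3.52% to 4.81%. This mitochondrial share lacks mt-Co2, mt-Co3, mt-Atp6, mt-Atp8 and mt-Nd4l, which had no counts in any library. P199L-ERG DMSO replicate 4 had the highest nuclear share, 1.45%, and the lowest mitochondrial share, 3.52%. In this library and in WT-ERG DMSO replicate 4, genes deviated from their group mean with exon length (Pearson r across genes of -0.44 and -0.47). P199L-ERG DMSO replicates 1 and 2 and WT-ERG DMSO replicate 1 deviated the other way (0.42, 0.33 and 0.33). The tested nuclear genes of oxidative phosphorylation are short, with a median exon length of 1756 bases against 4016 for all genes tested. Results that rest on the replicate 4 libraries are given with and without them. Leaving these out keeps the libraries that deviated the other way, so such values are not corrected for length. Granulocyte-monocyte progenitor markers (Mpo, Elane, Prtn3, Ctsg, Kit, Cd34, Myb, Ms4a3) summed to between 23406 and 31545 CPM (counts relative to scaled library size) in every library, and none of the 8 was at 0 in any group. Erythroid markers summed to at most 2.57 CPM, with both alpha and both beta globin genes at 0, and T cell markers to at most 6.53 CPM.

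Levels were compared between genes as CPM divided by the exon length in kilobases (FPKM), averaged over all 24 libraries. Apart from the messages without counts and mt-Nd3, which had few, the mitochondrial messages stood far above the nuclear ones, led by mt-Co1, the catalytic subunit of complex IV, at 8641 ± 411 FPKM (SD, n = 24), mt-Cytb, the cytochrome b of complex III, at 7859.9 ± 666 FPKM, and mt-Nd1, a membrane subunit of complex I, at 7414 ± 755 FPKM. Among nuclear genes Cox6a1 (352 ± 35.9 FPKM), Cox8a (350.1 ± 30.8 FPKM), Atp5a1 (339 ± 23.7 FPKM) and Atp5b (322 ± 24.03 FPKM) were highest, and neighbours in this order lay within an SD of each other. With the longest transcript as the length Atp5b led them at 712 FPKM. Assembly factors were low, between 5.53 FPKM for Ndufaf2 and 16.4 FPKM for Ndufaf8. Of paired tissue isoforms, the cells expressed mainly the general form. Cox7a2 was at 139 FPKM and its tissue form Cox7a1 at 3.46 FPKM, with 15 to 43 counts per library, enough to be tested. Cox4i1 reached 223 FPKM and its lung form Cox4i2 0.0997 FPKM, Cox6a1 was at 352 FPKM and the heart and muscle form Cox6a2 at 0.441 FPKM, and Cox6b1 was at 294 FPKM and the testis form Cox6b2 at 0.0456 FPKM. Cox8b, Cox8c and Cox7b2, forms of muscle and testis, were at 0 in every library. Of the 12 genes that were not tested, these 3, Cox4i2, Cox6a2, Cox6b2 and Ndufa4l2 make up the 7 nuclear ones, all low in every group.

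With BRD3308 more of these genes fell than rose in each construct. In WT-ERG cells 31 of the 95 genes fell with BRD3308 and 1 rose, at a threshold of 0.05 on the adjusted p of the edgeR quasi-likelihood test. Among all 12963 genes tested 23.2% fell and 24.7% rose, so the 32.6% of oxidative phosphorylation genes that fell lay above the background share, and the single gene that rose far under it. In P199L-ERG cells 55 of 95 fell, or 57.9%, and 1 rose, against a background of 24.1% lower and 24.4% higher. In BB cells 16 of 95 fell, or 16.8%, against a background of 22% lower, and 3 rose, against 23.9% higher. That the BB count lay under the background held in this fit but not under every setting. With only the BB groups in the fit 27 fell and 10 rose, against 26% and 25.7% of all genes, and with a covariate for each library's slope on exon length 30 fell and 12 rose, against 26.5% and 27.2%. The same covariate gave 46 lower and 5 higher in WT-ERG cells, against 27.7% and 28.3%. The changes were small. The median log2 fold change of the 95 genes was -0.10 in WT-ERG cells, -0.20 in P199L-ERG cells and -0.04 in BB cells, where the median of all genes was -0.0015, -0.0062 and 0.0056 in the same cells. Counted by libraries that did not overlap, 31, 37 and 28 of the 95 genes were lower and 0, 0 and 8 higher in WT-ERG, P199L-ERG and BB cells, where 21.5%, 18.9% and 21.8% of all genes were lower and 22.5%, 20.8% and 23% higher. Leaving out P199L-ERG DMSO replicate 4 reduced the P199L-ERG response to 48 lower and 3 higher with a median of -0.13, and raised the count in BB cells, which that library enters only through the fit shared by all groups, to 27 lower and 7 higher. Without WT-ERG DMSO replicate 4 the WT-ERG response had 23 lower and 4 higher with a median of -0.06.

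**Figure D1:**
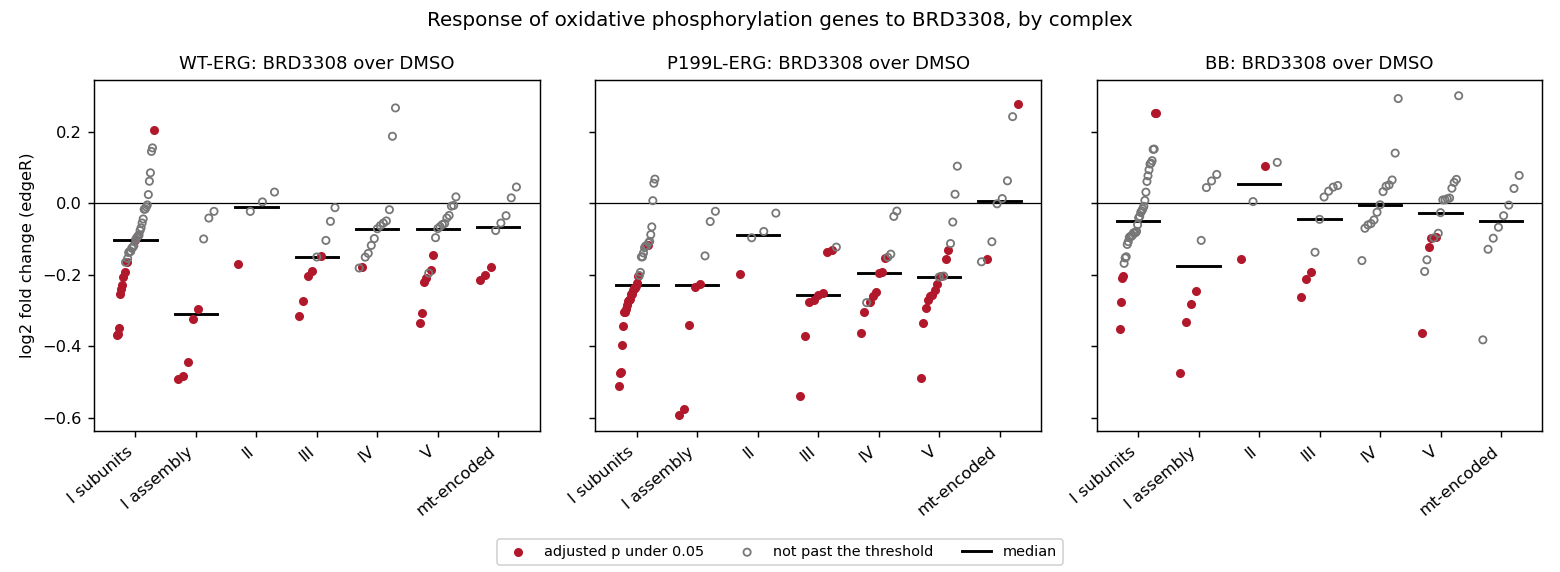
Log2 fold change of BRD3308 over DMSO (vertical axis) for the 95 tested genes in WT-ERG, P199L-ERG and BB cells, by complex, with 1 point a gene, filled red where the adjusted p was under 0.05, and bars at the median of each complex. In P199L-ERG cells 55 filled points lie under 0 and 1 above it, whereas in BB cells 16 lie under 0 and 3 above it.

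Markers of maturing myeloid cells moved with the same treatment, and so did some markers of other lineages. Of 10 monocyte and macrophage markers 9 were tested, and all 9 rose with BRD3308 in each construct. The list summed to 1399 to 1486 CPM in BRD3308-treated WT-ERG cells against 460 to 478 CPM with DMSO, to 1587 to 1696 CPM in BRD3308-treated P199L-ERG cells against 501 to 564 CPM with DMSO, and to 1911 to 2043 CPM in BRD3308-treated BB cells against 828 to 872 CPM with DMSO. Of the defining markers Ly86 alone was at 0 in all libraries of a group, BRD3308-treated WT-ERG cells. Neutrophil markers, 10 genes of granules and migration such as S100a8 and Ltf, summed to 5109 to 6445 CPM in BRD3308-treated WT-ERG cells against 2143 to 3098 CPM with DMSO, to 4718 to 5471 CPM in BRD3308-treated P199L-ERG cells against 1744 to 2601 CPM with DMSO, and to 4393 to 5929 CPM in BRD3308-treated BB cells against 2447 to 3124 CPM with DMSO. Of the 9 neutrophil markers tested 6, 5 and 5 rose and 1, 0 and 1 fell in WT-ERG, P199L-ERG and BB cells. Among all genes tested 24.7%, 24.4% and 23.9% rose and 23.2%, 24.1% and 22% fell in the same order of constructs. Progenitor markers summed to 25734 to 26950 CPM in BRD3308-treated WT-ERG cells against 26732 to 28890 CPM with DMSO, to 26563 to 28012 CPM in BRD3308-treated P199L-ERG cells against 28383 to 31545 CPM with DMSO, and to 23406 to 25140 CPM in BRD3308-treated BB cells against 26300 to 26853 CPM with DMSO. Mast cell and basophil markers summed to 322 to 345 CPM in BRD3308-treated WT-ERG cells against 498 to 546 CPM with DMSO, to 279.9 to 301 CPM in BRD3308-treated P199L-ERG cells against 424 to 497 CPM with DMSO, and to 306 to 344 CPM in BRD3308-treated BB cells against 374 to 393 CPM with DMSO. Of 6 such markers Fcer1a was at 0 in every group, and of the 5 tested 2, 2 and 1 fell and 0, 1 and 1 rose. In BB cells these counts lay near the shares of all genes. Of 8 progenitor markers 4, 4 and 5 fell and 2 rose in each construct. Of 4 megakaryocyte markers tested 3 rose and 1 fell in each construct. Of 4 B cell markers tested 3, 2 and 2 rose and 1 fell. Megakaryocyte sums were lower with BRD3308 in WT-ERG and P199L-ERG cells and higher in BB cells, and B cell sums went the reverse way. The single erythroid marker tested rose in each construct. The part of these markers in the fall of oxidative phosphorylation genes was not tested, and in bulk RNA fewer cells of a type and less RNA per cell cannot be told apart.

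Shares of all counts were compared by library. Nuclear oxidative phosphorylation genes took 1.1% to 1.15% of counts in BRD3308-treated WT-ERG cells and 1.18% to 1.31% with DMSO. They took 1.1% to 1.14% in BRD3308-treated P199L-ERG cells and 1.197% to 1.45% with DMSO. In BB cells the shares were 1.09% to 1.12% with BRD3308 and 1.15% to 1.16% with DMSO, so in each construct every BRD3308-treated library lay under every DMSO-treated library. The mitochondrially encoded genes did not separate in this way, at 3.91% to 4.47% with BRD3308 and 4.32% to 4.81% with DMSO in WT-ERG cells, 3.86% to 4.36% with BRD3308 and 3.52% to 4.603% with DMSO in P199L-ERG cells, and 4.11% to 4.39% with BRD3308 and 4.18% to 4.65% with DMSO in BB cells.

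**Figure D2:**
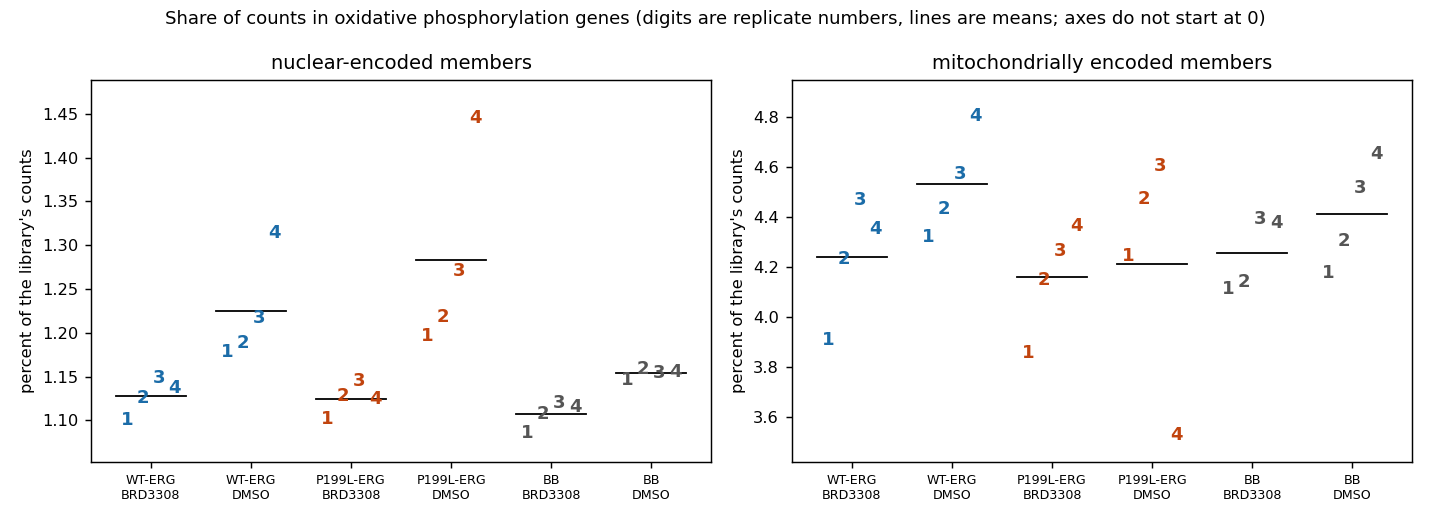
Share of each library's counts (vertical axes, %, not starting at 0) in nuclear and in mitochondrially encoded genes of oxidative phosphorylation, by group along the horizontal axis, each digit being a library's replicate number and each bar a group mean. BRD3308-treated libraries lie at or under 1.15% for nuclear genes, and P199L-ERG DMSO replicate 4 lies apart at 1.45% nuclear and 3.52% mitochondrial.

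Of the 95 genes 15 fell with BRD3308 in all 3 constructs, or 15.8%, close to the 15.1% of all genes that did so (1963 of 12963). They were the assembly factors Ndufaf2, Ndufaf3, Ndufaf4 and Ndufaf8, the complex I subunits Ndufb5, Ndufs7 and Ndufs8, the complex II flavoprotein Sdha, the complex III subunits Cyc1, Uqcrc1 and Uqcr11, and the ATP synthase subunits Atp5a1, Atp5b, Atp5c1 and Atp5g1. In 44 of these 45 calls every BRD3308-treated library lay under every DMSO-treated library of the same construct, and Ndufaf8 in BB cells was the exception. Of the calls, 41 held under each of 35 alternatives at the same threshold, and those that did not were Atp5a1, Atp5b, Ndufaf2 and Ndufaf8 in BB cells. A further 15 genes (15.8%) fell in a pair of constructs, 27 (28.4%) in a single construct and 38 (40%) in none, where 7.08%, 9.67% and 68.1% of all genes did. Across the 87 nuclear genes the log2 fold changes correlated between constructs, whose libraries are separate, with Pearson r of 0.71 for WT-ERG and P199L-ERG, 0.87 for WT-ERG and BB, and 0.76 for P199L-ERG and BB, a description across genes that share their libraries and depth.

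Assembly factors held the largest falls. Ndufaf3, needed for an early step of complex I assembly and located at chr9:108565537-108567434 of GRCm38, had 17.4, 18.04, 19.3 and 19.3 CPM in BRD3308-treated WT-ERG cells, against 23.6, 25.3, 25.6 and 29.2 CPM with DMSO. In P199L-ERG cells it had 18.97, 19.5, 20.3 and 18.8 CPM with BRD3308, against 26.7, 28.6, 28.8 and 31.7 CPM with DMSO, and in BB cells 19.5, 19.3, 19.5 and 19.3 CPM with BRD3308, against 26.6, 28.2, 26.4 and 26.8 CPM with DMSO. The highest treated library, at 20.3 CPM, was under the lowest DMSO library, at 23.6 CPM, so the treatments did not overlap whatever the construct. The edgeR log2 fold change was -0.48 ± 0.06 in WT-ERG cells (SE; adjusted p = 3.88e-07), -0.58 ± 0.06 in P199L-ERG cells (adjusted p = 1.37e-08) and -0.48 ± 0.06 in BB cells (adjusted p = 4.91e-07). Ndufaf4, which works with Ndufaf3, had 22, 23.5, 26.4 and 23.2 CPM in BRD3308-treated WT-ERG cells, against 33.6, 29.2, 35.1 and 31.5 CPM with DMSO, a log2 fold change of -0.44 ± 0.06 (adjusted p = 5.28e-07, edgeR). Its fall was -0.23 ± 0.06 in P199L-ERG cells and -0.28 ± 0.06 in BB cells (adjusted p = 0.00168 and 0.000489), again without overlap. Ndufaf8, located at chr11:120098928-120100705, fell by 0.49, 0.59 and 0.33 on the log2 scale in WT-ERG, P199L-ERG and BB cells, and in BB cells its libraries overlapped, at 10.7, 10.04, 13.8 and 11.5 CPM with BRD3308 and 11.9, 13.4, 15.3 and 17.8 CPM with DMSO (adjusted p = 0.021, edgeR; 0.118 at most over the alternatives). Ndufaf2 also fell in all 3, yet 63.7% of its 60-base windows occur in another gene and 1955 bases of its exons overlap a gene on the other strand, so its counts are uncertain. Ndufaf6 fell in WT-ERG (-0.29 ± 0.09) and P199L-ERG cells (-0.23 ± 0.09) and had 0.08 ± 0.10 in BB cells, while Ndufaf1, Ndufaf5 and Ndufaf7 passed in no construct.

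**Figure D3:**
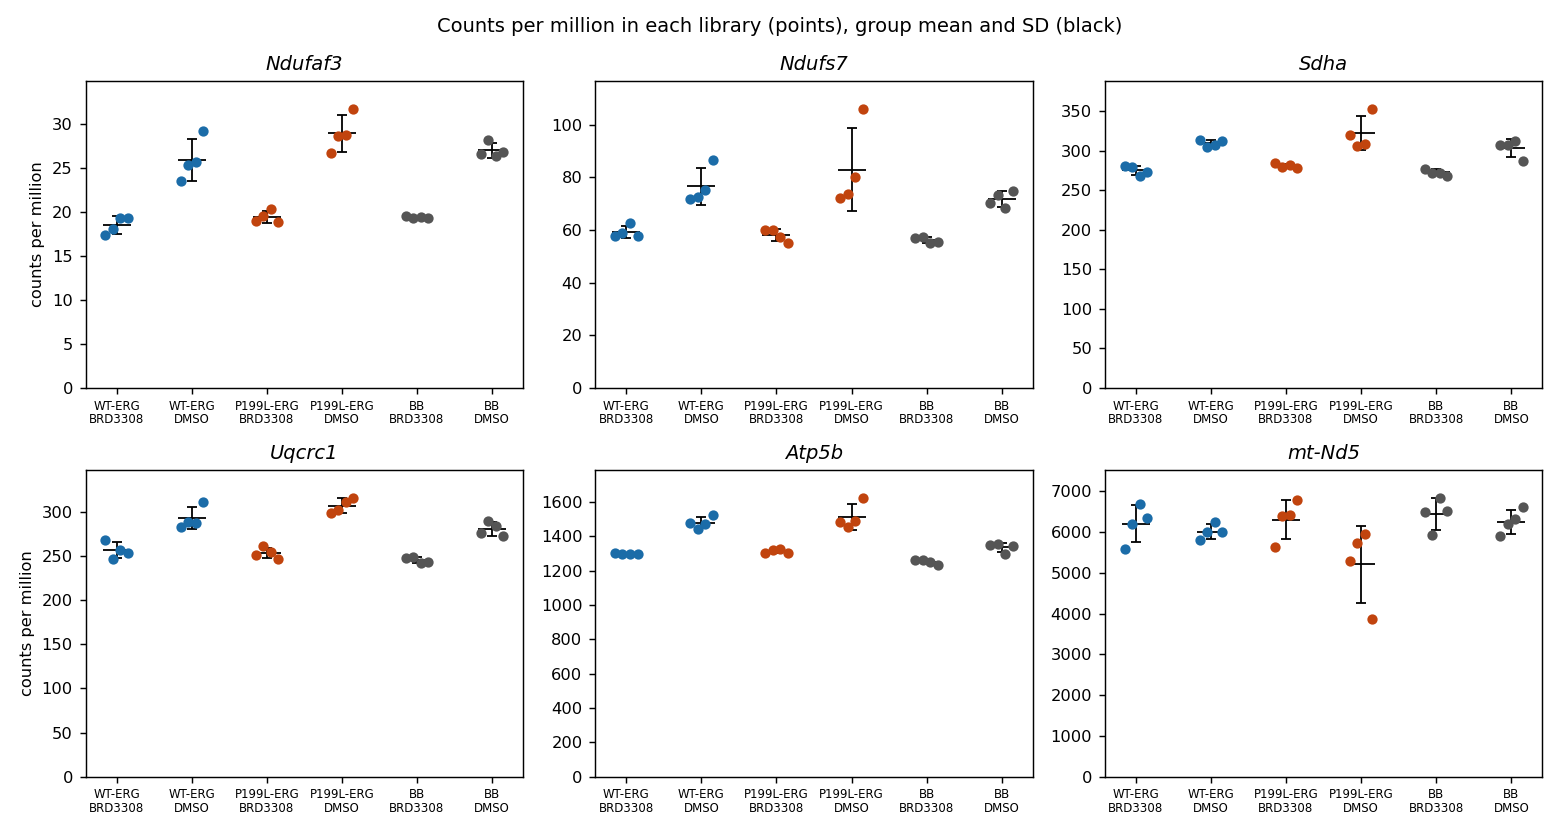
Level in CPM (vertical axis, from 0) of Ndufaf3, Ndufs7, Sdha, Uqcrc1, Atp5b and mt-Nd5 in the 24 libraries, with 1 point a library and the mean of the 4 libraries with its SD as a bar. Ndufaf3 lies at or under 20.3 CPM in all BRD3308-treated libraries and at or over 23.6 CPM in all DMSO-treated ones, and mt-Nd5 is lowest in a DMSO-treated P199L-ERG library at 3856 CPM.

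Complex I takes electrons from NADH through a flavin and a row of iron-sulfur clusters in its peripheral arm. Of its 36 nuclear subunits tested, 10 fell and 1 rose in WT-ERG cells, 21 fell in P199L-ERG cells, and 4 fell and 2 rose in BB cells. The lower shares of 27.8%, 58.3% and 11.1% stood against 23.2%, 24.1% and 22% of all genes, so that in WT-ERG cells lay near the background. Of the 7 nuclear subunits of the catalytic core, 4 fell in WT-ERG cells, 5 in P199L-ERG cells and 2 in BB cells (57.1%, 71.4% and 28.6%). The strongest were Ndufs7 and Ndufs8, which carry the last iron-sulfur clusters before ubiquinone. Ndufs7 had 57.8, 58.7, 62.6 and 57.7 CPM in BRD3308-treated WT-ERG cells, against 71.6, 72.7, 75.3 and 86.7 CPM with DMSO. In P199L-ERG cells it had 59.9, 60, 57.4 and 54.9 CPM with BRD3308, against 71.9, 73.5, 80.1 and 106 CPM with DMSO. In BB cells it had 57, 57.3, 54.9 and 55.5 CPM with BRD3308, against 70.4, 73.3, 68.3 and 74.8 CPM with DMSO. The treatments did not overlap in any construct, and P199L-ERG DMSO replicate 4 was the highest library of all. The edgeR log2 fold changes were -0.37 ± 0.08, -0.51 ± 0.08 and -0.35 ± 0.08 in WT-ERG, P199L-ERG and BB cells (adjusted p = 0.00041, 6.29e-06 and 0.000809), and without that library Ndufs7 fell by 0.38 in P199L-ERG cells. Ndufs8, at chr19:3908863-3912774 on the reverse strand, changed by -0.35 ± 0.07 in WT-ERG cells, -0.47 ± 0.07 in P199L-ERG cells and -0.28 ± 0.07 in BB cells (adjusted p = 0.000235, 4.33e-06 and 0.00273). Ndufv1, the flavin subunit that takes the electrons from NADH, fell in WT-ERG (-0.24 ± 0.05) and P199L-ERG cells (-0.23 ± 0.05), and had -0.09 ± 0.05 in BB cells (adjusted p = 0.133).

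Accessory subunits, which surround and steady the core of complex I, were divided. In WT-ERG cells 6 of 29 fell, in P199L-ERG cells 16 and in BB cells 2. The lower shares of 20.7%, 55.2% and 6.9% stood against 23.2%, 24.1% and 22% of all genes. The share in WT-ERG cells thus lay near the background, and that in BB cells under it in this fit. Ndufb5, a membrane-arm subunit, had 94.98, 101, 104 and 107 CPM in BRD3308-treated WT-ERG cells, against 125, 120.2, 129 and 153 CPM with DMSO, and 95.1, 104, 101 and 107 CPM in BRD3308-treated P199L-ERG cells, against 127, 129.8, 144 and 165 CPM with DMSO. All treated libraries were under all DMSO libraries in both, and the log2 fold changes were -0.37 ± 0.07 and -0.47 ± 0.07 (adjusted p = 7.48e-05 and 2.02e-06, edgeR). In BB cells Ndufb5 changed by -0.21 ± 0.07 (adjusted p = 0.0167), and 616 bases of its exons overlap a gene on the other strand. Against the rest, Ndufb3 rose in WT-ERG cells by 0.21 ± 0.07 (adjusted p = 0.0216), at 129, 140.0, 139 and 135 CPM with BRD3308 and 113, 108, 115 and 134 CPM with DMSO. Those libraries overlap, and the call was lost when WT-ERG replicate 1, 2 or 3 with DMSO or replicate 2 or 3 with BRD3308 was left out (adjusted p of 0.0508 to 0.0884). In BB cells Ndufs4 rose by 0.25 ± 0.08 (adjusted p = 0.0145), at 53.8, 58.9, 56.9 and 62.1 CPM with BRD3308 and 48.5, 48.3, 49.1 and 48.4 CPM with DMSO, with no overlap. Ndufs5 rose there by 0.25 ± 0.10 (adjusted p = 0.0306) without overlap, though 19.3% of its windows occur in another gene. Neither passed in WT-ERG or P199L-ERG cells.

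Complexes II and III stand between the entry of electrons and cytochrome c. Sdha, the flavoprotein that oxidises succinate and is shared with the citric acid cycle, had 281, 279, 268 and 273 CPM in BRD3308-treated WT-ERG cells, against 313, 306, 308 and 312 CPM with DMSO. In P199L-ERG cells it had 284, 279.9, 282 and 278 CPM with BRD3308, against 320.5, 307, 309 and 353 CPM with DMSO, and in BB cells 278, 273, 272 and 269 CPM with BRD3308, against 307, 308, 313 and 287 CPM with DMSO. No treated library reached a DMSO library of its construct, and the log2 fold changes of -0.17 ± 0.04, -0.20 ± 0.04 and -0.15 ± 0.04 in WT-ERG, P199L-ERG and BB cells passed (adjusted p = 0.000404, 6.00e-05 and 0.00107, edgeR). None of the other subunits of complex II passed as lower. The iron-sulfur subunit Sdhb and the membrane anchor Sdhd passed in no construct, and the anchor Sdhc rose in BB cells by 0.11 ± 0.04 (adjusted p = 0.0431; kept in 21 of 35 alternatives), at 159, 173, 172 and 173 CPM with BRD3308 and 148, 156, 162 and 161 CPM with DMSO. These libraries overlap.

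Complex III, which hands electrons from ubiquinone to cytochrome c, was the complex with the largest share of lower subunits. Of 9 nuclear subunits, 5 fell in WT-ERG cells, 8 in P199L-ERG cells and 3 in BB cells, or 55.6%, 88.9% and 33.3% against 23.2%, 24.1% and 22% of all genes, and none rose. Cyc1, the cytochrome c1 that carries the electron out of the complex, had 129, 138, 135 and 142 CPM in BRD3308-treated WT-ERG cells, against 164, 161, 169.7 and 182 CPM with DMSO. In P199L-ERG cells it had 134, 139, 149 and 138 CPM with BRD3308, against 165, 171, 172 and 169 CPM with DMSO, and in BB cells 125, 131, 132 and 135 CPM with BRD3308, against 149, 149.8, 149.8 and 156 CPM with DMSO. The libraries separated in each construct, with log2 fold changes of -0.31 ± 0.04, -0.27 ± 0.04 and -0.21 ± 0.04 in WT-ERG, P199L-ERG and BB cells (adjusted p = 2.90e-07, 2.86e-06 and 0.000111, edgeR). Uqcrc1, a core protein of the matrix side located at chr9:108936633-108949623, had 247 to 269 CPM with BRD3308 and 283 to 312 CPM with DMSO in WT-ERG cells, 247 to 262 CPM with BRD3308 and 299.7 to 317 CPM with DMSO in P199L-ERG cells, and 242 to 249 CPM with BRD3308 and 273 to 290.2 CPM with DMSO in BB cells. Its groups did not overlap, and it changed by -0.19 ± 0.03, -0.28 ± 0.03 and -0.19 ± 0.03 (adjusted p = 5.00e-05, 1.84e-07 and 4.81e-05). Uqcr11, a small supernumerary subunit, had the largest fall of the complex, -0.54 ± 0.08 in P199L-ERG cells (adjusted p = 4.52e-06), at 41.9, 42.02, 45.7 and 42.6 CPM with BRD3308 and 52.5, 57.04, 59.9 and 81.6 CPM with DMSO. Replicate 4 was far above the other DMSO libraries, and without it the fall was 0.40. The supernumerary Uqcr10 was the complex III subunit that passed in no construct.

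In complex IV nearly all calls were made in P199L-ERG cells. Of 13 nuclear subunits, Ndufa4 included, which is named for complex I but is a complex IV subunit, 1 fell in WT-ERG cells, 8 in P199L-ERG cells and 0 in BB cells by edgeR, where 1 had an unadjusted p under 0.05. The shares in WT-ERG and P199L-ERG cells were 7.69% and 61.5%, against 23.2% and 24.1% of all genes. Cox8a, a small membrane subunit, had 204, 216, 221 and 202 CPM in BRD3308-treated WT-ERG cells, against 224, 225, 237 and 267 CPM with DMSO, and 182, 201, 207 and 206 CPM in BRD3308-treated P199L-ERG cells, against 232, 240.3, 252 and 221 CPM with DMSO. Treated libraries were under DMSO libraries in both, and the log2 fold changes were -0.18 ± 0.06 and -0.25 ± 0.06 (adjusted p = 0.00897 and 0.00045, edgeR). In BB cells the value was -0.05 ± 0.06 (adjusted p = 0.529). Cox7a2, the general form of subunit 7a, fell in P199L-ERG cells, at 116, 122, 122 and 121 CPM with BRD3308 and 134, 142, 149.6 and 193 CPM with DMSO, a log2 fold change of -0.36 ± 0.07 (adjusted p = 0.000217), or -0.25 without the high replicate 4. Cox4i1, through which ATP is known to slow the complex, passed in no construct, with -0.02 ± 0.06, -0.15 ± 0.06 and 0.07 ± 0.06 in WT-ERG, P199L-ERG and BB cells.

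ATP synthase carries its catalytic sites on the beta subunits of a soluble head, driven by a ring of c subunits that turns in the membrane. Of 17 nuclear genes tested, 6 fell in WT-ERG cells, 11 in P199L-ERG cells and 4 in BB cells, or 35.3%, 64.7% and 23.5% against 23.2%, 24.1% and 22% of all genes, so the share in BB cells lay near the background. Atp5b, the beta subunit, had 1300.0, 1298, 1299 and 1297 CPM in BRD3308-treated WT-ERG cells, against 1478, 1443, 1472 and 1522 CPM with DMSO. In P199L-ERG cells it had 1301, 1321, 1328 and 1304 CPM with BRD3308, against 1485, 1453, 1491 and 1625 CPM with DMSO, and in BB cells 1259.7, 1262, 1249 and 1233 CPM with BRD3308, against 1348, 1354, 1298 and 1343 CPM with DMSO. The treatments did not overlap, although in BB cells the lowest DMSO library lay close to the highest treated one. Log2 fold changes were -0.19 ± 0.03, -0.20 ± 0.03 and -0.09 ± 0.03 (adjusted p = 1.50e-05, 4.53e-06 and 0.0146, edgeR; in BB cells up to 0.0575 over the alternatives). The alpha subunit Atp5a1 and the gamma subunit Atp5c1, the central shaft of the head, also fell in each construct, with -0.14 ± 0.03 and -0.22 ± 0.04 in WT-ERG cells, -0.16 ± 0.03 and -0.24 ± 0.04 in P199L-ERG cells, and -0.10 ± 0.03 and -0.12 ± 0.04 in BB cells.

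The c subunit is made from 3 genes that give the same mature protein. Atp5g3 was by far the most expressed at 108 ± 11.7 FPKM (SD, n = 24), Atp5g1 was at 5.15 ± 0.830 FPKM and Atp5g2 at 1.43 ± 0.313 FPKM. Atp5g1 had 23.9, 23.5, 21.4 and 23.3 CPM in BRD3308-treated WT-ERG cells, against 28.2, 27.2, 28.7 and 30.2 CPM with DMSO, 21.7, 21.2, 24.4 and 21.7 CPM in BRD3308-treated P199L-ERG cells, against 27.9, 30.8, 33.4 and 32.9 CPM with DMSO, and 18.6, 21.1, 20.1 and 22.2 CPM in BRD3308-treated BB cells, against 25.01, 28.9, 24.6 and 26.7 CPM with DMSO. It fell without overlap in each, with -0.31 ± 0.07, -0.49 ± 0.07 and -0.36 ± 0.07 (adjusted p = 0.000495, 9.74e-07 and 0.000107, edgeR). Atp5g3 fell in WT-ERG (-0.21 ± 0.07) and P199L-ERG cells (-0.26 ± 0.07) and had -0.10 ± 0.07 in BB cells (adjusted p = 0.279). Atp5g2 passed in none, and 37.3% of its windows occur in another gene.

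The 3 promoters that follow belong to genes lower in all 3 constructs and are shown because they hold letters bound by known regulators of respiratory genes, which are NRF1 (GCGCATGCG), ETS factors such as GABPA and ERG itself (CCGGAAG), and YY1 (AAGATGGCG). Each window runs from 250 bases before to 50 bases after the gene start, on the gene's strand, from RefSeq on GRCm38.p6, at chr9:108936398-108936697 for Uqcrc1, chr19:3912725-3913024 for Ndufs8 (reverse strand) and chr11:120098684-120098983 for Ndufaf8. Capitals mark the matches, which for Uqcrc1 are a pair that overlap on opposite strands and for Ndufs8 show the ETS core read on the other strand (CTTCCGG).
Uqcrc1: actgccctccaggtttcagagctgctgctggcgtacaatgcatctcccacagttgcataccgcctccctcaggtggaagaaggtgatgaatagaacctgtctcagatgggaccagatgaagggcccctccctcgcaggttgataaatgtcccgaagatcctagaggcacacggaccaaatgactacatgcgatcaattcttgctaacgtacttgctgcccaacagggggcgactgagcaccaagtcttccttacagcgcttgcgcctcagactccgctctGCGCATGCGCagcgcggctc
Ndufs8: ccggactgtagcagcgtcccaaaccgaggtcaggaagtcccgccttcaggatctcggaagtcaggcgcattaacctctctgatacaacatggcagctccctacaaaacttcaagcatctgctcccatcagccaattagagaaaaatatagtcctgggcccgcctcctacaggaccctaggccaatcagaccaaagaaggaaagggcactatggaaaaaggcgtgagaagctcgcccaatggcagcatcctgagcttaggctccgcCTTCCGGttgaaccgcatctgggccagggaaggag
Ndufaf8: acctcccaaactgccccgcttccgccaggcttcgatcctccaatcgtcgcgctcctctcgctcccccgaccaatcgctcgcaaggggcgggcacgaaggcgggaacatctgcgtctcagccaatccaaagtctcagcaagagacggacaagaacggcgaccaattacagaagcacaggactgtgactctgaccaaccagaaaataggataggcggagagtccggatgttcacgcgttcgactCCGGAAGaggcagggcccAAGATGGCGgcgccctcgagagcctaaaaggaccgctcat
Of the 87 nuclear genes tested, 71 had a promoter in the RefSeq table. Searched on both strands, the NRF1 core was in 10 of them (14.1%) and in 1.81% of all 27025 promoters, the ETS core in 17 (23.9%) and in 9.12% of all, and the YY1 core in 7 (9.86%) and in 1.49% of all. At least 1 of these cores, none of which lies inside another as spelled, was in 29 of the 71 promoters (40.8%) and 11.8% of all, in 6 of the 13 promoters of genes lower in all 3 constructs (46.2%) and in 10 of the 26 promoters of genes lower in none (38.5%). The set of all promoters includes genes that were not tested in these cells, and promoters of all tested genes were not searched as a set. A difference from it is thus not particular to respiratory genes. These shares describe letters in these windows and say nothing about binding.

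Of the 8 mitochondrially encoded genes tested, 3 fell and none rose in WT-ERG cells, or 37.5% lower against 23.2% of all genes and 32.2% of the nuclear genes of oxidative phosphorylation. Further, 1 fell and 1 rose in P199L-ERG cells, and none passed in BB cells by edgeR, where none had an unadjusted p under 0.05 either. The cytochrome b gene mt-Cytb had 7935, 8650.3, 9071 and 8971 CPM in BRD3308-treated WT-ERG cells, against 9207, 9388, 9873 and 10744 CPM with DMSO, a change of -0.18 ± 0.06 without overlap (adjusted p = 0.0201, edgeR; 0.0919 without replicate 4 of the DMSO group and 0.0736 without replicate 1 of the BRD3308 group). In P199L-ERG cells mt-Cytb changed by -0.15 ± 0.06 with overlapping libraries (adjusted p = 0.0445; kept in 24 of 35 alternatives). The membrane subunits mt-Nd1 and mt-Nd2 of complex I fell in WT-ERG cells, with -0.21 ± 0.08 and -0.20 ± 0.07 (adjusted p = 0.0257 and 0.0135), and without replicate 1 of the BRD3308 group their adjusted p was 0.0994 and 0.0629. For mt-Nd1 it was also 0.127 without replicate 4 of the DMSO group and 0.053 without replicate 2 of the BRD3308 group. The most abundant of the messages counted, mt-Co1, passed in no construct, with -0.03 ± 0.05, -0.00097 ± 0.05 and -0.0046 ± 0.05 in WT-ERG, P199L-ERG and BB cells (95% intervals of -0.13 to 0.06, -0.10 to 0.10 and -0.10 to 0.09). The proton-pumping subunit mt-Nd5 of complex I went the other way in P199L-ERG cells. It had 5644, 6396, 6415 and 6787 CPM with BRD3308, against 5300.0, 5724, 5945 and 3856 CPM with DMSO, a rise of 0.28 ± 0.08 (adjusted p = 0.00702). The libraries overlap, replicate 4 with DMSO is the lowest by far, and without it the rise was 0.15 (adjusted p = 0.0286). Values of mt-Nd5 were 0.05 ± 0.08 in WT-ERG cells and 0.04 ± 0.08 in BB cells.

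For 5 mitochondrially encoded genes, mt-Co2, mt-Co3, mt-Atp6, mt-Atp8 and mt-Nd4l, the table lists 0 counts in every library, although they lie among messages such as mt-Cytb with 112493 to 159426 counts, and mt-Nd3 has 4 to 18 counts. A copy of mitochondrial DNA on chromosome 1 repeats most of them. Every 60-base window of mt-Co2 occurs in another gene, as do 99.9% of the windows of mt-Co3, 99.5% of mt-Atp6, 98.7% of mt-Nd4l and 97.9% of mt-Nd3, against 0% for mt-Nd1, mt-Nd6 and mt-Cytb. The gene mt-Atp8 is at 0 as well but shares no such window with an annotated transcript. Sequence outside annotated transcripts was not searched. The copies on chromosome 1 are at or near 0 too, with 0 to 1 counts for Gm28661, the copy of mt-Co2, and 0 to 4 for Gm28438, the copy of mt-Nd3, while Gm13341, which also shares windows with mt-Co2, has 147 to 229 counts. The start of each pair is shown because it makes the identity visible, from GRCm38 at chrM:7013-7072 and chr1:24615506-24615565 (reverse strand) for mt-Co2 and at chrM:9459-9518 and chr1:24613060-24613119 (reverse strand) for mt-Nd3. Capitals mark the single base that differs.
mt-Co2: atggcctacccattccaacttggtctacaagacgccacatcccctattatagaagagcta
Gm28661: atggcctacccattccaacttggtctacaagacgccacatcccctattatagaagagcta
mt-Nd3: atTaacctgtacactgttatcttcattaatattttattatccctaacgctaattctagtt
Gm28438: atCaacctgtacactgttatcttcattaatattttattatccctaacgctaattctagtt
Over their whole overlap 0 of 681 bases differ between mt-Co2 and Gm28661, and 1 of 345 between mt-Nd3 and Gm28438. The level of these genes cannot be read from the table. Shares of windows were also high in mt-Nd4 (61.9%) and mt-Co1 (46.5%), which were counted at 22385 or more reads in every library, so their values too are uncertain.

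Without inhibitor, the constructs were compared in DMSO. In WT-ERG against BB cells 14 of 95 genes were higher and none lower, where 15.6% of all genes were higher and 14.1% lower, so the 14.7% of oxidative phosphorylation genes that were higher was close to the background. The median log2 fold change was 0.07, and 17 genes were higher without overlap of libraries, against 16.2% of all genes. Ndufaf4 had the largest difference among those that passed, at 33.6, 29.2, 35.1 and 31.5 CPM in WT-ERG cells, against 26.1, 26.6, 24.96 and 23.8 CPM in BB cells, or 0.35 ± 0.06 (adjusted p = 3.34e-05, edgeR), without overlap. Ndufaf6 followed with 0.32 ± 0.09, then Atp5s, known as coupling factor B, with 0.29 ± 0.08, and Ndufb5 with 0.28 ± 0.07. Atp5b had 1478, 1443, 1472 and 1522 CPM in WT-ERG cells, against 1348, 1354, 1298 and 1343 CPM in BB cells, and was higher by 0.15 ± 0.03 (adjusted p = 0.000575), again without overlap. With a covariate for each library's slope on exon length 28 were higher and 5 lower, against 19.9% and 18.5% of all genes. Without WT-ERG DMSO replicate 4, 7 were higher and 2 lower, against 14% and 13.2% of all genes. Without P199L-ERG DMSO replicate 4, which enters only through the shared fit, 22 were higher and 3 lower, against 17.1% and 17.3%.

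Markers of other cells also differed between constructs in DMSO. Monocyte markers summed to 460 to 478 CPM in WT-ERG cells and 501 to 564 CPM in P199L-ERG cells, against 828 to 872 CPM in BB cells, and B cell markers to 30.6 to 40.03 CPM and 32.8 to 35.6 CPM, against 84.02 to 94.6 CPM in BB cells. Mast cell and basophil markers summed to 498 to 546 CPM in WT-ERG cells and 424 to 497 CPM in P199L-ERG cells, against 374 to 393 CPM in BB cells, and megakaryocyte markers to 63.7 to 69.8 CPM and 44.8 to 47.9 CPM, against 24.4 to 28.7 CPM in BB cells. By edgeR against BB, of 9 monocyte markers 2 were higher and 5 lower in WT-ERG cells, and 3 and 5 in P199L-ERG cells. In both, 1 of 4 megakaryocyte markers was higher and 1 lower, with median log2 fold changes of -0.18 and -0.41. Of 5 mast cell markers 4 were higher and 1 lower in both, and of 4 B cell markers 2 were lower and 0 higher. Among all genes 15.6% and 15.3% were higher and 14.1% and 12.9% lower. The ranges of WT-ERG and of P199L-ERG cells did not meet that of BB cells in these 4 lists, while those of the neutrophil markers overlapped. Their part in the differences of oxidative phosphorylation genes between constructs was not tested.

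In P199L-ERG against BB cells 38 of 95 genes were higher, or 40%, and 1 was lower, against 15.3% higher and 12.9% lower among all genes. The median log2 fold change was 0.17, 22 genes were higher without overlap of libraries, against 12.7% of all genes, and complexes III (6 of 9 higher) and V (10 of 17) had the largest shares. Ndufb5 had 127, 129.8, 144 and 165 CPM in P199L-ERG cells, against 103, 105, 112 and 112 CPM in BB cells, and was higher by 0.38 ± 0.07 (adjusted p = 0.000107, edgeR). Atp5a1 had 1131, 1125, 1135 and 1262 CPM in P199L-ERG cells, against 1051, 1032, 1014 and 1028 CPM in BB cells, and was higher by 0.17 ± 0.03 (adjusted p = 0.000232). Both were free of overlap, and replicate 4 was the highest P199L-ERG library in both. The count moved with that library. Without it 21 genes were higher and none lower, with a median of 0.06 and a background of 12.5% higher, whereas 63 passed without replicate 1 of the same group and 25 without BB DMSO replicate 1. With only these groups in the fit 14 were higher, against 8.74% of all genes, and with the covariate for exon length 71 were higher and 1 lower, against 20.2% and 17.7%. Uqcr11 was higher by 0.32 ± 0.08 with the library and by 0.16 without it (adjusted p = 0.0045 and 0.0177). The lower gene was mt-Nd5, at 5300.0, 5724, 5945 and 3856 CPM in P199L-ERG cells, against 5899, 6203, 6322 and 6614 CPM in BB cells, or -0.27 ± 0.08 (adjusted p = 0.0172). The call was lost without replicate 4 of the P199L-ERG cells (-0.15, adjusted p = 0.0513) and without replicate 4 of the BB cells (adjusted p = 0.0578).

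**Figure D4:**
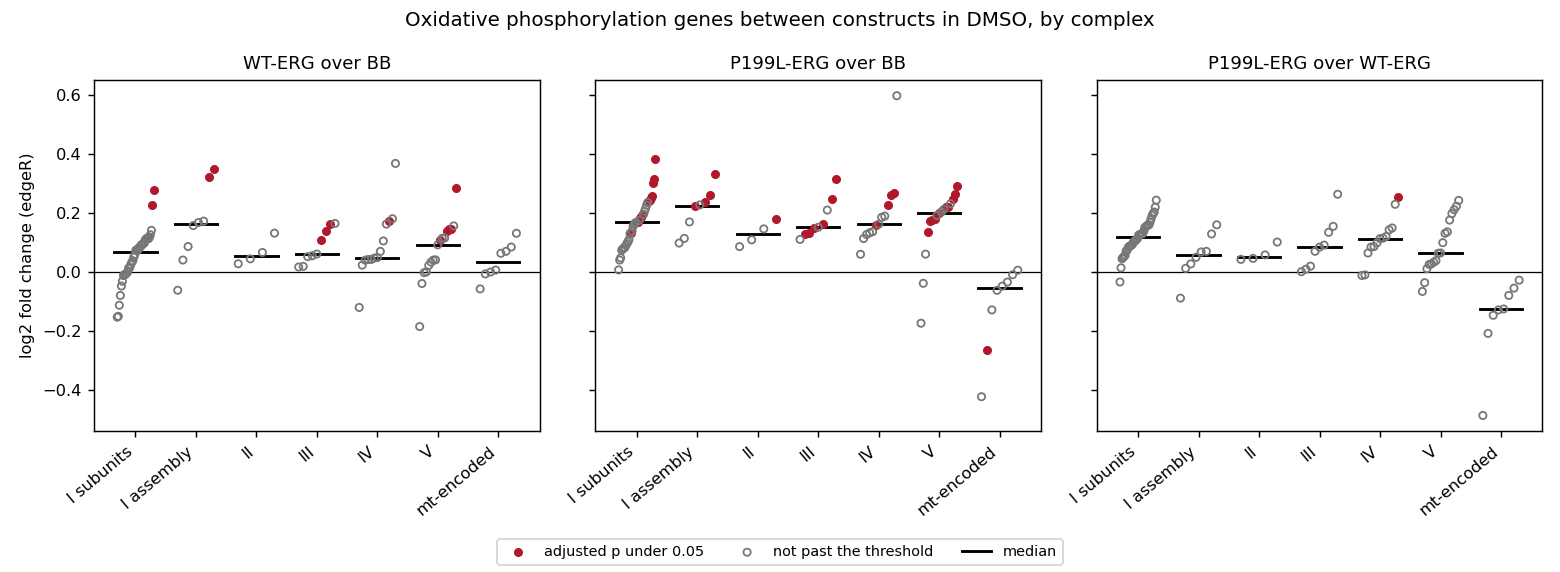
Log2 fold change between constructs in DMSO (vertical axis) for the 95 tested genes by complex, with 1 point a gene, filled red where the adjusted p was under 0.05, and bars at the median of each complex. Filled points number 14 for WT-ERG over BB, 39 for P199L-ERG over BB and 1 for P199L-ERG over WT-ERG.

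P199L-ERG and WT-ERG cells differed in 1 gene with DMSO, against 2.23% higher and 2.45% lower among all genes, and 16 of 95 had an unadjusted p under 0.05. Cox7a2 had 134, 142, 149.6 and 193 CPM in P199L-ERG cells, against 121, 123, 129.8 and 145 CPM in WT-ERG cells, a difference of 0.25 ± 0.07 (adjusted p = 0.0469, edgeR). Its libraries overlap, and without replicate 4 of the P199L-ERG cells the difference was 0.14 (adjusted p = 0.178). In 22 of 35 alternatives the call held. With the covariate for exon length 35 genes were higher and 1 lower, against 6.42% and 5.08% of all genes, and with no filter on low counts 12 were higher and 4 lower, whereas limma-voom and the fit of only these groups gave 0. The count of genes that passed was 9 without P199L-ERG DMSO replicate 1, 3 without P199L-ERG DMSO replicate 2 and 6 without WT-ERG DMSO replicate 4. It was 0 without any of the DMSO-treated BB libraries, without WT-ERG replicate 1, 2 or 3 with DMSO, without WT-ERG replicate 2 with BRD3308, or without P199L-ERG replicate 3 or 4 with DMSO. The median over the 95 genes was 0.09 with all libraries and 0.01 without P199L-ERG DMSO replicate 4.

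**Figure D5:**
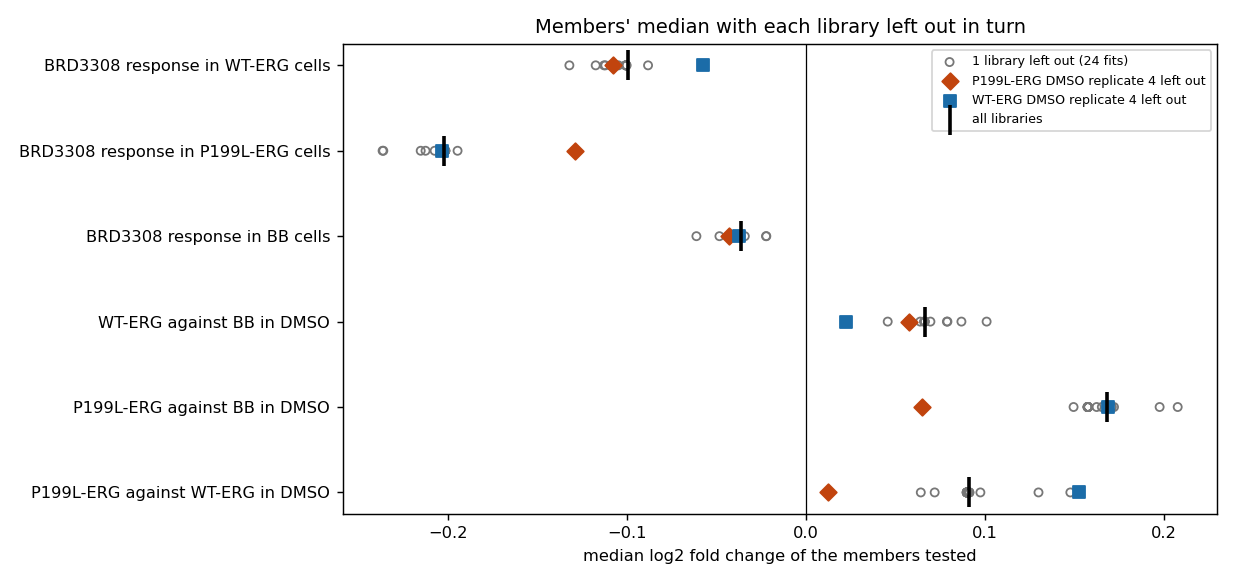
Median log2 fold change of the 95 genes (horizontal axis) in 6 comparisons, with all libraries (black bar) and with each of the 24 libraries left out in turn (circles, with a diamond for P199L-ERG DMSO replicate 4 and a square for WT-ERG DMSO replicate 4). Leaving out P199L-ERG DMSO replicate 4 moved the P199L-ERG response to -0.13, P199L-ERG against BB to 0.06 and P199L-ERG against WT-ERG to 0.01.

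Under BRD3308 few of the genes differed between constructs. In WT-ERG against BB cells 2 of 95 genes were higher and none lower, against 10.4% higher and 10.7% lower among all genes, and in P199L-ERG against BB cells 3 were higher and none lower, against 8.12% and 8.81%. Ndufaf4 was in both, at 22, 23.5, 26.4 and 23.2 CPM in WT-ERG cells and 25.8, 26.1, 25.5 and 26.1 CPM in P199L-ERG cells, against 20.7, 20.8, 20.1 and 21.9 CPM in BB cells, which is 0.19 ± 0.06 for WT-ERG and 0.31 ± 0.06 for P199L-ERG over BB (adjusted p = 0.0301 and 0.00052, edgeR). All P199L-ERG and WT-ERG libraries were above all BB libraries. Atp5a1 was in both with 0.10 ± 0.03 and 0.12 ± 0.03, and Ndufs1, an iron-sulfur subunit of the electron input arm, was higher in P199L-ERG cells by 0.14 ± 0.04 (adjusted p = 0.00937). These 2 comparisons share the BB libraries. The WT-ERG count fell to 1 without BRD3308-treated BB replicate 1, 2 or 4 or WT-ERG replicate 2 or 3, to 0 without BB replicate 3 or WT-ERG replicate 4, and was 4 without P199L-ERG DMSO replicate 4, where the P199L-ERG count was 5. With the covariate for exon length the counts were 14 and 13, and with only the groups compared in the fit they were 4 and 8. Between P199L-ERG and WT-ERG cells none passed by edgeR, against 1.31% higher and 2.09% lower, none had an unadjusted p under 0.05, and DESeq2 and limma-voom called none.

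Whether the response to BRD3308 differed between constructs was tested directly, as a difference of differences. No gene of the 95 passed in any of the 3 tests by edgeR, where 1.73% of all genes passed for WT-ERG minus BB, 1.05% for P199L-ERG minus BB and 0.0463% for P199L-ERG minus WT-ERG. An unadjusted p under 0.05 was reached by 4, 33 and 5 genes in these tests, and DESeq2 and limma-voom called none. Other settings did call genes. With the covariate for exon length 3, 42 and 7 genes passed, all with a negative difference, where 2.2%, 4.71% and 0.594% of all genes were negative calls, and with no filter on low counts 0, 9 and 1 passed. For P199L-ERG minus BB 88 of the 95 differences were negative with a median of -0.17, and the smallest p was that of Ndufb6, an accessory subunit of complex I, with -0.26 ± 0.08 (unadjusted p = 0.00352, adjusted p = 0.14). Without P199L-ERG DMSO replicate 4 the median was -0.09, and without replicate 1 of that group 1 gene passed. For WT-ERG minus BB the assembly factor Ndufaf6 had the smallest p, with -0.38 ± 0.13 (adjusted p = 0.225), and Ndufaf4 had it for P199L-ERG minus WT-ERG, with 0.21 ± 0.08 (adjusted p = 0.741).

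Genes around oxidative phosphorylation were followed in the same comparisons, from lists of mitochondrial functions. Their shares are to be read against the 23.2%, 24.1% and 22% of all genes that fell and the 24.7%, 24.4% and 23.9% that rose in WT-ERG, P199L-ERG and BB cells. Of 18 genes of the citric acid cycle and pyruvate dehydrogenase, 13 fell in WT-ERG cells, 14 in P199L-ERG cells and 9 in BB cells (72.2%, 77.8% and 50%), and none rose, with medians of -0.19, -0.16 and -0.10. Idh3a, a subunit of the NAD-linked isocitrate dehydrogenase, changed by -0.33 ± 0.04, -0.22 ± 0.04 and -0.17 ± 0.04 in WT-ERG, P199L-ERG and BB cells (adjusted p = 5.24e-08, 3.38e-05 and 0.0007, edgeR). Of 78 mitochondrial ribosomal protein genes, whose ribosomes translate the mitochondrial messages, 34 fell in WT-ERG cells, 46 fell and 1 rose in P199L-ERG cells, and 18 fell and 4 rose in BB cells, with medians of -0.15, -0.19 and -0.08. The lower shares were 43.6%, 59% and 23.1%, the last near the background, although without P199L-ERG DMSO replicate 4 the BB count was 28 lower and 7 higher. Mrpl41, a protein of the large subunit, changed by -0.69 ± 0.08, -0.81 ± 0.08 and -0.63 ± 0.08 in the same order of constructs. In DMSO 40 of the 78 (51.3%) were higher in P199L-ERG cells and 18 (23.1%) in WT-ERG cells when set against BB, where 15.3% and 15.6% of all genes were, and none were lower. Without P199L-ERG DMSO replicate 4 the P199L-ERG count was 18, against 12.5% of all genes, and without WT-ERG DMSO replicate 4 the WT-ERG count was 10, against 14%.

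Of 24 protein import genes 16 fell in WT-ERG cells, 13 in P199L-ERG cells and 9 in BB cells (66.7%, 54.2% and 37.5%; 10 in WT-ERG cells without WT-ERG DMSO replicate 4), with medians of -0.20, -0.17 and -0.16, led by Timm17b of the inner membrane translocase, with -0.48 ± 0.06, -0.52 ± 0.06 and -0.45 ± 0.06. Among 11 carriers and channels the citrate carrier Slc25a1 fell in each construct with -0.52 ± 0.05, -0.58 ± 0.05 and -0.40 ± 0.05, as did Slc25a5, the ADP/ATP carrier of growing cells with -0.36 ± 0.04, -0.38 ± 0.04 and -0.24 ± 0.04, while Slc25a4, the ADP/ATP carrier of heart and muscle, rose in each, by 0.15 ± 0.05, 0.15 ± 0.05 and 0.37 ± 0.06. Over the list 5, 6 and 3 fell and 1, 1 and 2 rose. Of 14 genes for ubiquinone synthesis and cytochrome c 7 fell in each construct and 0, 2 and 1 rose, with Coq6, a hydroxylase of the ubiquinone ring, at -0.39 ± 0.08, -0.43 ± 0.08 and -0.47 ± 0.08. Of 21 genes for the upkeep and expression of mitochondrial DNA 8 fell in WT-ERG cells and 9 in P199L-ERG cells, and 7 fell and 2 rose in BB cells, with Polg, the mitochondrial DNA polymerase, at -0.32 ± 0.05, -0.25 ± 0.05 and -0.39 ± 0.05.

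Assembly factors of the complexes beyond the Ndufaf genes were mixed. Of 40 tested, 15 fell and 3 rose in WT-ERG cells, 14 fell and 6 rose in P199L-ERG cells, and 8 fell and 8 rose in BB cells. The lower shares were 37.5%, 35% and 20% and the higher shares 7.5%, 15% and 20%, so in BB cells both lay near the background. Acad9, which serves complex I assembly, fell in each with -0.38 ± 0.05, -0.34 ± 0.05 and -0.38 ± 0.05, and Sco1, a copper carrier for complex IV, with -0.55 ± 0.07, -0.40 ± 0.07 and -0.44 ± 0.07. Nubpl, which delivers iron-sulfur clusters to complex I, rose in each by 0.48 ± 0.11, 0.55 ± 0.11 and 0.58 ± 0.12, and Sdhaf4, an assembly factor for the flavoprotein Sdha, rose by 0.47 ± 0.12, 0.48 ± 0.13 and 0.66 ± 0.13, where Sdha itself fell.

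Among 9 regulators of respiratory genes, Pprc1, a coactivator of the PGC-1 family, fell in each construct with -0.36 ± 0.05, -0.17 ± 0.05 and -0.27 ± 0.05 in WT-ERG, P199L-ERG and BB cells (adjusted p = 1.80e-06, 0.00934 and 0.00013, edgeR). Esrra, an orphan nuclear receptor, fell with -0.21 ± 0.06, -0.18 ± 0.06 and -0.18 ± 0.06, and Gabpb2, a partner of the ETS factor GABPA with -0.17 ± 0.06, -0.15 ± 0.06 and -0.17 ± 0.06. Gabpa fell in WT-ERG (-0.12 ± 0.04) and BB cells (-0.14 ± 0.04) and had -0.04 ± 0.04 in P199L-ERG cells. Gabpb1 rose in WT-ERG cells by 0.16 ± 0.06. Ppargc1b, another coactivator of the PGC-1 family, fell in P199L-ERG cells with -0.42 ± 0.17, and had -0.40 ± 0.17 and -0.30 ± 0.19 in WT-ERG and BB cells. Nrf1 and Yy1 passed in no construct. Myc, which drives cell growth, rose in P199L-ERG cells by 0.26 ± 0.07 (adjusted p = 0.0052) and had -0.06 ± 0.07 and 0.08 ± 0.08 in WT-ERG and BB cells. In DMSO, Myc was higher than in BB cells in WT-ERG cells (0.55 ± 0.07, adjusted p = 1.05e-06) and in P199L-ERG cells (0.27 ± 0.07, adjusted p = 0.0075), as was Ppargc1b (0.50 ± 0.17 and 0.47 ± 0.17), and Pprc1 was higher in WT-ERG cells (0.22 ± 0.05).

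Reads of these genes can be shared with other genes. Of the 87 nuclear genes 19 have at least 10% of their 60-base windows in another gene, 27 overlap a gene on the other strand and 5 a gene on the same strand, and whether the counting used strand is not given in the sources used here. The other 50 genes gave 18 lower and 1 higher in WT-ERG cells, 33 lower in P199L-ERG cells, 12 lower and 2 higher in BB cells, 8 higher in WT-ERG against BB cells with DMSO and 23 higher in P199L-ERG against BB cells with DMSO. Among all genes 23.2%, 24.1% and 22% were lower in WT-ERG, P199L-ERG and BB cells. In WT-ERG and P199L-ERG against BB cells with DMSO 15.6% and 15.3% of all genes were higher. The lower count in BB cells and the count for WT-ERG against BB cells thus lay near the background.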

How the data were processed

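RNA of 24 libraries, 6 groups of 4, was measured by RNA-seq. The authors deposited 1 table of read counts per gene, in raw units. The submitters' processing notes name cutadapt, STAR, HTSeq and DESeq2 with the GRCm38 build, and the study's methods state that reads shorter than 30 bases were discarded. Whether counting used strand, and which annotation it used, is not given in the sources used here. The 24 libraries added up to 12510036 to 16280939 counts, which limits precision for genes with few counts. GENCODE M21 on GRCm38 gave gene types, coordinates and exon lengths for 53706 of the 53801 rows. A replicate is a library of a separate experiment by the labels, and p-values measure the spread between such libraries.

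The members and lists were chosen with earlier results of these data known. Counts were tested with the quasi-likelihood F test of edgeR 4.0.16 in R 4.3.3, with TMM factors, filterByExpr, 1 fit of all 24 libraries with a coefficient for each group, and Benjamini-Hochberg adjustment over 12963 genes (threshold 0.05). Each SE was taken as the absolute log2 fold change over the root of the F statistic. CPM are counts over the TMM-scaled library size, whereas FPKM are counts over the unscaled library total and the exon length. The test was checked on simulated counts: for the P199L-ERG response 5 of 50 genes changed 1.1-fold, 27 of 50 changed 1.2-fold and 46 of 50 changed 1.5-fold were found, among 12726 genes. There 135 genes were called, whereas 24.4% of all genes rose and 24.1% fell in the real P199L-ERG response. Simulated counts also held no pattern with exon length or replicate number, so these rates do not give the sensitivity of the real test. Alternatives were limma 3.58.1 (voom), DESeq2 1.42.0, other scalings, filters, groups in the fit, a replicate block, a slope on exon length, a threshold of 0.01 and each library left out. Window sharing was counted over 60-base stretches of exon sequence.

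Genes were named by a rule: in each complex the 3 nuclear subunits of smallest p among those past the threshold, the mitochondrially encoded genes, genes that moved against their complex, the 5 largest rises and 5 largest falls among those past the threshold with an average log2 CPM of 2 or more, tissue isoform pairs, the Ndufaf genes, and of each other list up to 3 genes by p, with the regulators 1 by 1. Genes that pass in several constructs are given most room, and Atp5g2, Uqcr10, Sdhb and Sdhd were added to complete a family. No library was left out of the main results.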

Additional observations from a re-analysis of the deposited data

Results flagged for a closer look

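In 4 of 168 groups of 4 libraries examined (28 named genes), 1 library lay far from the other 3, where chance alone flags about 1 in 20 such groups. Atp5a1 had 1262 CPM in P199L-ERG DMSO replicate 4, and the other 3 libraries had 1125 to 1135 CPM. Cyc1 had 156 CPM in BB DMSO replicate 4, and the others had 149 to 149.8 CPM. Atp5g1 had 24.4 CPM in replicate 3 of the BRD3308-treated P199L-ERG cells, and the others had 21.2 to 21.7 CPM. Sdhc had 159 CPM in replicate 1 of the BRD3308-treated BB cells, and the others had 172 to 173 CPM.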

How the results depend on the processing

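None of the 161 calls in the 3 responses and the 3 comparisons in DMSO turned its direction under any alternative, and genes that did not pass were not followed. Of these calls 95 held under all alternatives at the threshold of 0.05, and 98 held at a threshold of 0.01. All alternatives were chosen together with the main settings, except the counts of the other mitochondrial lists without WT-ERG or P199L-ERG DMSO replicate 4, which were added after seeing the data. Counts of genes past the threshold follow, as the total of both directions, and the cause of each shift was not tested except where fewer libraries or a stricter threshold act by construction. With a slope on exon length for each library, 51 passed in the WT-ERG response (32 without it), 42 in the BB response (19), 33 in WT-ERG against BB in DMSO (14), 72 in P199L-ERG against BB (39), 36 in P199L-ERG against WT-ERG (1), 14 and 13 in WT-ERG and P199L-ERG against BB under BRD3308 (2 and 3), and 3, 42 and 7 in the differences of response for WT-ERG minus BB, P199L-ERG minus BB and P199L-ERG minus WT-ERG (0 each). With only the groups compared in the fit 37 passed in the BB response, 14 in P199L-ERG against BB and 0 in P199L-ERG against WT-ERG in DMSO, and 4 and 8 in WT-ERG and P199L-ERG against BB under BRD3308. At a threshold of 0.01 there passed 8 in the BB response, 6 in WT-ERG against BB, 19 in P199L-ERG against BB and 0 in P199L-ERG against WT-ERG in DMSO, and 0 and 2 in WT-ERG and P199L-ERG against BB under BRD3308. Without WT-ERG DMSO replicate 4 and P199L-ERG DMSO replicate 4 together 36 passed in the BB response, 22 in P199L-ERG against BB in DMSO, and 6 and 8 in WT-ERG and P199L-ERG against BB under BRD3308. With no filter on low counts P199L-ERG against WT-ERG in DMSO gave 16, WT-ERG against BB under BRD3308 gave 1, and the differences P199L-ERG minus BB and P199L-ERG minus WT-ERG gave 9 and 1. P199L-ERG against WT-ERG in DMSO gave 0 with a minimum of 30 reads in every library, 0 with limma-voom and 2 with DESeq2, and P199L-ERG against BB under BRD3308 gave 5 with plain library sizes. The median level of the genes was 65.6 FPKM per exon length and 83.4 FPKM per longest transcript.

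With each library left out in turn, counts ranged from 27 to 47 in the WT-ERG response, 50 to 66 in the P199L-ERG response, 16 to 34 in the BB response, 9 to 25 in WT-ERG against BB, 21 to 63 in P199L-ERG against BB and 0 to 9 in P199L-ERG against WT-ERG in DMSO, 0 to 4 and 2 to 5 in WT-ERG and P199L-ERG against BB under BRD3308, 0 to 0 in P199L-ERG against WT-ERG under BRD3308, and 0 to 0, 0 to 1 and 0 to 0 in the differences of response. The labels give the groups the same replicate numbers but do not say what a number shares, so the samples were not treated as paired. Same-numbered libraries of 2 groups had correlations of 0.02 to 0.38 in their deviations, over 0.1 in 19 of 36 pairs, and in 25 of 36 the library correlated best with its own number, a hint from the data and not from the design. With the number as a replicate block 31 passed in the BB response, 26 in WT-ERG against BB, 61 in P199L-ERG against BB and 8 in P199L-ERG against WT-ERG in DMSO, 5 and 6 in WT-ERG and P199L-ERG against BB under BRD3308, and 6 in the difference P199L-ERG minus BB. All 161 calls held with the block. Small changes were often missed in simulation: in simulated counts for the difference P199L-ERG minus BB 10 of 50 genes changed 1.2-fold were found, and 42 of 50 changed 1.5-fold, among 12741 genes.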

Other observations

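Of the 120 rows whose symbols meet the rule, 13 are not annotated as protein coding and were left out of the 107 genes. Ndufb1-ps, annotated as a noncoding RNA from a bidirectional promoter, averaged 793 counts per library, and with BRD3308 it changed by -0.25 ± 0.09 in P199L-ERG cells (SE; adjusted p = 0.0194, edgeR), -0.12 in WT-ERG cells (adjusted p = 0.301) and -0.06 in BB cells (adjusted p = 0.589). Uqcrh-ps1, a processed pseudogene with 27.7 counts per library on average, passed in no comparison, and the other 11 averaged 3.71 counts or fewer.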
